A study of Mus musculus with 3 samples.

Results

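The 8 megakaryocyte and platelet genes Pf4, Ppbp, Itga2b, Itgb3, Vwf, Thbs1, Timp3 and Ptgs1 were taken by symbol from the 17796 genes of the table, and all 8 were found. They were chosen by name, as known genes of this lineage, with the CPM ratios of these 3 libraries in view, so the values below are a description without a test. The libraries were made from the polyadenylated RNA of spleen T cells of C57BL/6 mice, cultured for 3 days on plate-bound antibodies against CD3 (2 ug/ml) and CD28 (5 ug/ml) with 100 IU/ml interleukin 2 in medium with 10% serum. The young library came from mice aged 2 months, labelled vehicle without a stated course. The aged vehicle library came from mice whose stated age was 24 months and which received vehicle 3 times a week for 2 months, and the aged fumarate library from mice of the same stated age which received fumarate, a metabolite of the tricarboxylic acid cycle, at 10 mg/kg on that schedule. With 1 library per group, and no statement in the labels on pooling of mice, the differences could not be set against a spread between replicates and carry no p-value.

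Megakaryocytes are the large bone marrow and spleen cells that shed platelets. They pack chemokines and adhesive proteins into granules, carry the integrin of alpha IIb and beta 3 that binds fibrinogen, and make thromboxane from arachidonate through cyclooxygenase 1. In mice the spleen stays a site of platelet production in adult life, and platelets themselves carry RNA from the megakaryocyte.

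Levels are given in CPM (reads of a gene per 1000000 reads of its library) and are not corrected for gene length unless CPM per kb of exon is written. Where 3 values follow each other, their order is young, aged vehicle, aged fumarate. Depth, estimated from the worth of 1 read, was 41.0 M reads (M, 1000000) in the young, 17.3 M in the aged vehicle and 13.9 M in the aged fumarate library. Intervals are 95% exact (Clopper-Pearson) intervals on estimated reads and cover counting error only, since reads are not independent molecules. T cell markers were present in all 3 libraries. The 17 listed genes summed to 4909 CPM (young), 4364 CPM (vehicle) and 5307 CPM (fumarate), and none of them was past 2-fold in any comparison. Of all genes, 8.96% were past 2-fold higher and 1.71% lower for vehicle over young. The shares were 0.258% and 5.87% for fumarate over vehicle and 3.99% and 1.95% for fumarate over young. With shares this small, the count does not show that the T cell part was constant. In bulk RNA such as this, fewer cells of a type and less RNA per cell cannot be told apart.

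Of the 8 genes, 5 had a promoter in the RefSeq table (GRCm38.p6), and Itgb3, Vwf and Thbs1 had none there. The windows of 250 bases before the RefSeq start are shown for 3 of them. Pf4 and Ppbp lie 2371 bases apart on the same strand but differed in the share of the vehicle level seen with fumarate, and Ptgs1 had the lowest level of the 8 in every library. Capitals mark matches to the ETS word AGGAAG or its variant with a first C, which reads CGGAAG, on either strand, and the windows are chr5:90772185-90772434 (plus strand) for Pf4, chr5:90768268-90768517 (plus strand) for Ppbp and chr2:36230176-36230425 (plus strand) for Ptgs1.
Pf4: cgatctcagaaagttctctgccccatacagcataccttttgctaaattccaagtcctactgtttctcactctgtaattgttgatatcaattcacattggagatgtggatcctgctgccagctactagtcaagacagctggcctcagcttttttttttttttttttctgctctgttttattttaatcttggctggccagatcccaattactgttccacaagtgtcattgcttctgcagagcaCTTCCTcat
Ppbp: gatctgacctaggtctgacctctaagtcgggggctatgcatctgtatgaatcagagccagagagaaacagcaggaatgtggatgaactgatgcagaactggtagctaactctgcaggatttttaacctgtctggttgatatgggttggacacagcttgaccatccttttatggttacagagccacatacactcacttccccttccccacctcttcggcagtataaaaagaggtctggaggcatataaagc
Ptgs1: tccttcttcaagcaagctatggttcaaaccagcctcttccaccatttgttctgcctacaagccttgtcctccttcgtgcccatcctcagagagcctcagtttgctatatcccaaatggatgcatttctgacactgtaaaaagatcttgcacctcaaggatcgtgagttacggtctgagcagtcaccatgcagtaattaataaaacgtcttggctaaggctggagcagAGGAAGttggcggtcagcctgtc
ETS factors such as Fli1 and GATA factors such as Gata1 are regulators of megakaryocyte genes. An ETS word stood in 4 of the 5 windows (Pf4, Itga2b, Timp3 and Ptgs1) against 39.2% of 32817 windows of that length. The Itga2b window, chr11:102469884-102470133 (minus strand), lies mostly inside the gene span given below, which ends at 102470122. The Timp3 window, chr10:86300162-86300411 (plus strand), runs past the gene start given below, 86300372. For these genes the search thus took in bases inside the annotated gene. In Pf4 the match covers the bases 9 to 4 before the start, on the opposite strand, and in Ptgs1 the bases 23 to 18 before it. The GATA words searched were AGATAA, the variant with a last G reading AGATAG, the variant with a first T reading TGATAA, and the variant with both reading TGATAG. On either strand none of them stood in any of the 5, against 26.6% of all windows, and the GC box word GGGCGG stood in that of Timp3 alone, against 32.7% of all windows. These matches describe the letters of the windows.

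All 8 genes had their highest level in the aged vehicle library, their lowest in the young one and an intermediate level in the aged fumarate library. Together they summed to 45.8 CPM in the young, 2814 CPM in the aged vehicle and 354 CPM in the aged fumarate library, which is 0.00458%, 0.281% and 0.0354% of all reads. The median gene stood at 2.56, 442 and 43.1 CPM. Every gene was above the level that a count of 0 allows (3 reads, or 0.0732, 0.174 and 0.217 CPM), with 13 to 1268 estimated reads in the young, 1913 to 9779 in the vehicle and 133 to 1382 in the fumarate library.

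**Figure D1:**
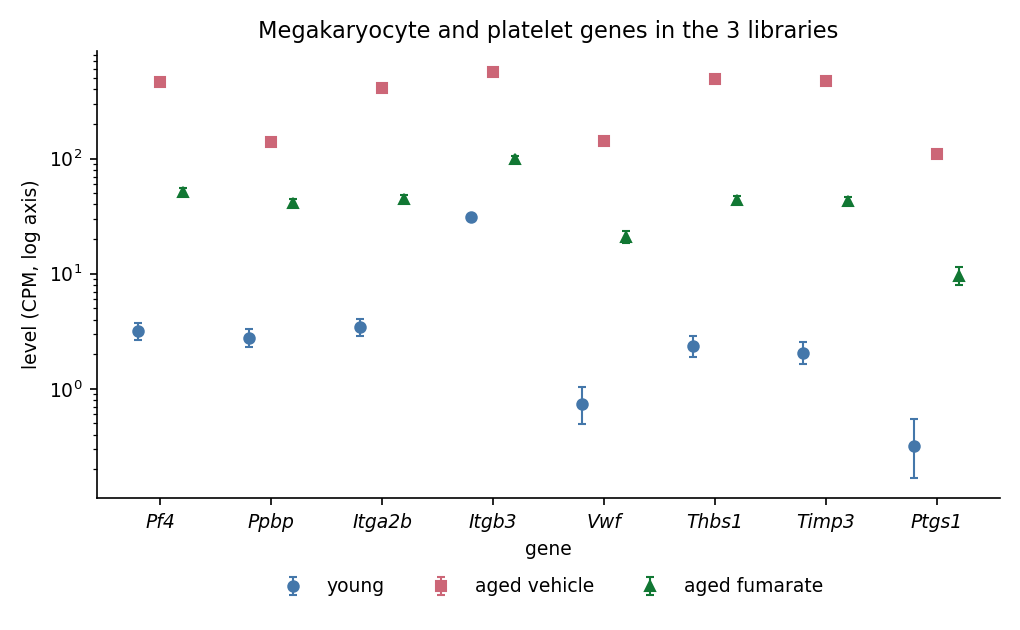
Level in CPM (log axis) of each of the 8 genes in the young (circles), aged vehicle (squares) and aged fumarate (triangles) libraries, 1 library each, with 95% counting intervals as bars where they exceed the symbol. For each gene the order is young, fumarate, vehicle, and Itgb3 alone starts above 10 CPM in the young library, at 30.9 CPM.

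Pf4 encodes platelet factor 4 (CXCL4), a chemokine of platelet granules (mm10, chromosome 5, 90772435 to 90773383). It was at 3.17 CPM in the young, 468 CPM in the aged vehicle and 51.3 CPM in the aged fumarate library. Ppbp (chromosome 5, 90768518 to 90770063) encodes pro-platelet basic protein, the precursor of the neutrophil-attracting chemokine CXCL7, and was at 2.78, 141 and 41.4 CPM. The 2 genes had similar levels in the young and fumarate libraries and stood apart in the vehicle library. The vehicle level was 148-fold the young level for Pf4 (124 to 177) and 50.6-fold for Ppbp (41.9 to 61.6). With fumarate, Pf4 was at 11.0% of its vehicle level (10.1% to 11.8%) and Ppbp at 29.4% (26.8% to 32.2%), and these intervals do not overlap. Against the young library the fumarate library was 16.2-fold higher for Pf4 (13.4 to 19.7) and 14.9-fold higher for Ppbp (12.2 to 18.4), intervals that do overlap.

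Per kb of exon (721 bases for Pf4 and 1083 for Ppbp), the ratio of Pf4 to Ppbp was 1.71 in the young (1.32 to 2.22), 4.99 in the aged vehicle (4.77 to 5.23) and 1.86 in the aged fumarate library (1.66 to 2.08). The neighbouring chemokine genes followed the same order of libraries at lower levels. Cxcl5, 6893 bases from Ppbp, was at 0.0732, 12.6 and 1.23 CPM, with 3 reads in the young library. Cxcl3, 12719 bases from Pf4, was at 0.0244, 2.78 and 0.289 CPM, with 1 read in the young and 4 in the fumarate library. Neither young value exceeds the 3 reads that a count of 0 allows. Of the receptors, Cxcr2, which binds the Ppbp product, was at 0 CPM in the young, 1.68 CPM in the vehicle and 0.577 CPM in the fumarate library. Cxcr3, a receptor of effector T cells, was at 7.66, 11.6 and 9.96 CPM.

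Itga2b and Itgb3 encode the alpha IIb and beta 3 chains of the platelet fibrinogen receptor. Itga2b (chromosome 11, 102453297 to 102470122) was at 3.42 CPM in the young, 416 CPM in the aged vehicle and 45.0 CPM in the aged fumarate library. Itgb3 (chromosome 11, 104608000 to 104670476) was at 30.9, 566 and 99.8 CPM, the top level of the 8 in each library. The beta chain made up 67.6% of the summed CPM of the 8 genes in the young library but 20.1% and 28.2% in the vehicle and fumarate libraries. Vehicle over young was 122-fold for Itga2b (103 to 145) and 18.3-fold for Itgb3 (17.3 to 19.4). With fumarate, Itga2b was at 10.8% of its vehicle level (9.95% to 11.7%) and Itgb3 at 17.6% (16.6% to 18.6%). After the young level was subtracted from both, the fumarate library held 10.1% of the vehicle level for Itga2b and 12.9% for Itgb3.

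The alpha chain was closest to its partner in the vehicle library. The ratio of Itga2b to Itgb3, per kb of exon, was 0.119 in the young (0.0996 to 0.142), 0.794 in the vehicle (0.770 to 0.819) and 0.488 in the fumarate library (0.443 to 0.537). Beta 3 also pairs with alpha V, and Itgav, which encodes that chain, had another order of libraries, at 90.5 CPM in the young, 141 CPM with vehicle and 178 CPM with fumarate. Per kb, Itga2b was at 0.0743 of Itgav in the young, 5.80 times Itgav in the vehicle and 0.498 of it in the fumarate library. Itgb1, the beta 1 chain of many T cell integrins, was at 236, 317 and 266 CPM, so that per kb the ratio of Itgb3 to Itgb1 was 0.0908, 1.24 and 0.259.

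**Figure D2:**
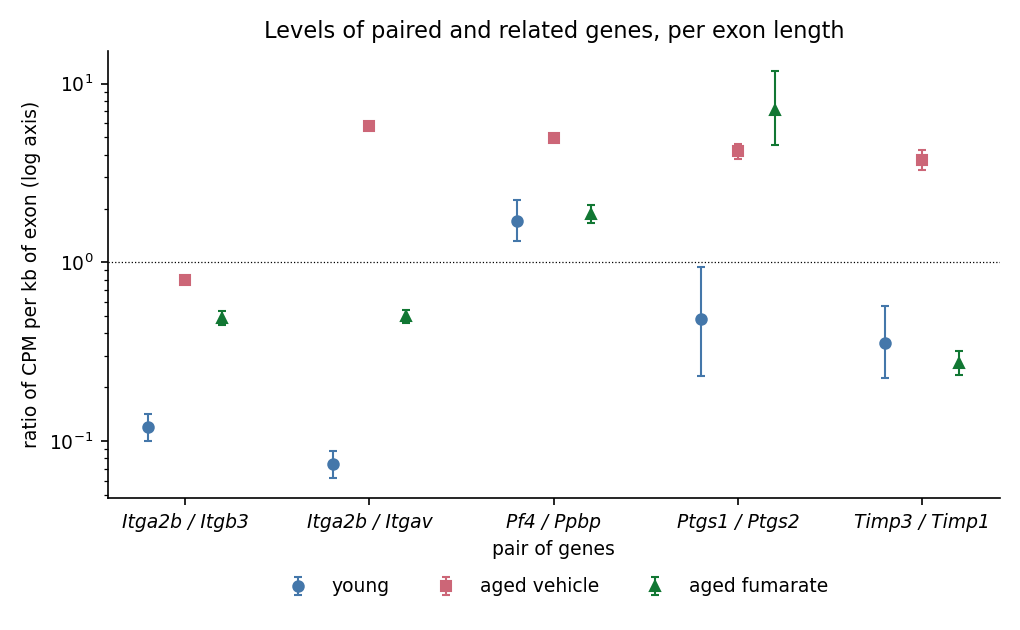
Ratio of CPM per kb of exon (log axis) for 5 pairs of genes in the young (circles), aged vehicle (squares) and aged fumarate (triangles) libraries, 1 library each, with 95% counting intervals as bars. The dotted line marks equal levels: Itga2b lies above Itgav in the vehicle library alone, at 5.80, and Timp3 lies above Timp1 in that library alone, at 3.75.

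Vwf and Thbs1 encode adhesive proteins of platelet granules. Vwf (chromosome 6, 125546774 to 125686679), von Willebrand factor, tethers platelets to exposed collagen and is also made by endothelial cells. It was at 0.732 CPM in the young, 143 CPM in the aged vehicle and 20.9 CPM in the aged fumarate library. Thbs1 (chromosome 2, 118111876 to 118127133), thrombospondin 1, was at 2.34, 492 and 43.6 CPM. Its vehicle level was thus near that of Pf4, whereas that of Vwf was near that of Ppbp. Vehicle over young was 195-fold for Vwf (136 to 290) and 210-fold for Thbs1 (172 to 259). Vwf was at 14.6% of its vehicle level with fumarate (12.9% to 16.5%) and Thbs1 at 8.87% (8.15% to 9.63%).

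Among their partners, Gp1ba, the platelet receptor for von Willebrand factor, was at 0.610 CPM in the young, 31.5 CPM in the vehicle and 7.72 CPM in the fumarate library. Cd47, a broadly expressed receptor of thrombospondin 1, was at 348, 348 and 343 CPM. Cd36, another thrombospondin receptor, was at 2.32, 9.79 and 8.23 CPM. Thbs3, a related thrombospondin, was at 2.07, 5.73 and 5.12 CPM, close to Thbs1 in the young library alone (per kb ratio of Thbs1 to Thbs3 0.897, 0.663 to 1.22).

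Timp3 (chromosome 10, 86300372 to 86349506) encodes a matrix-bound inhibitor of metalloproteinases and of the shedding enzyme ADAM17. It was at 2.06 CPM in the young, 478 CPM in the aged vehicle and 42.6 CPM in the aged fumarate library, 232-fold for vehicle over young (188 to 293) and 8.92% of the vehicle level with fumarate (8.19% to 9.69%). Syn3, inside which Timp3 lies on the opposite strand, was at 0.110, 1.30 and 0.0722 CPM. The soluble family members had other orders of libraries. Timp1 was at 0.634, 13.9 and 17.1 CPM, 1.23-fold for fumarate over vehicle (1.02 to 1.48), and Timp2 at 7.59, 5.10 and 3.10 CPM. The per kb ratio of Timp3 to Timp1 was 0.354 in the young, 3.75 in the vehicle and 0.271 in the fumarate library. Adam17 itself was at 75.2, 75.6 and 69.6 CPM.

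Ptgs1 (chromosome 2, 36230426 to 36252272) encodes cyclooxygenase 1, the first enzyme of prostanoid synthesis. It was at 0.317 CPM in the young (13 reads), 111 CPM in the aged vehicle and 9.60 CPM in the aged fumarate library (133 reads). Vehicle over young was 349-fold, with an interval from 204 to 657 that reflects the few reads in the young library, and fumarate was at 8.66% of vehicle (7.21% to 10.3%). Ptgs2, the inducible cyclooxygenase 2, was at 0.781, 31.2 and 1.59 CPM. Ptgs1 lay below Ptgs2 per kb in the young library (ratio 0.479, 0.231 to 0.938) and above it in the vehicle (4.19, 3.81 to 4.62) and fumarate libraries (7.13, 4.52 to 11.8). Tbxas1, thromboxane synthase, was at 0.244, 61.9 and 6.93 CPM. Gm43621, annotated inside the span of Ptgs1 on the other strand, was at 0, 1.45 and 0.146 CPM.

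The members were next set beside all genes of the table. For aged vehicle over young, all 8 were at least 2-fold higher on the log2 scale of CPM + 1, where the added 1 damps the ratios of genes with few reads, as were 8.96% of all 17796 genes, and the median log2 ratio of the 8 was 6.48 against 0.04 for all genes. Timp3 (log2 ratio 7.29), Thbs1 (7.20) and Pf4 (6.81) ranked 3, 4 and 6 among all genes, while Itgb3 (4.15) ranked 142. For aged fumarate over aged vehicle, all 8 were at least 2-fold lower, as were 5.87% of all genes, with a median of −3.17 against −0.04. Thbs1 was lowest of the 8 at −3.47 (rank 24 from the bottom) and Ppbp least low at −1.74 (rank 463). For aged fumarate over young, all 8 were at least 2-fold higher, as were 3.99% of all genes, with a median of 3.57 against 0.00273 and a range from 1.66 for Itgb3 to 3.83 for Timp3. Since the 8 genes were picked with these ratios known, nothing about the genes is read from these counts, and any 2 of the 3 comparisons share a library.

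**Figure D3:**
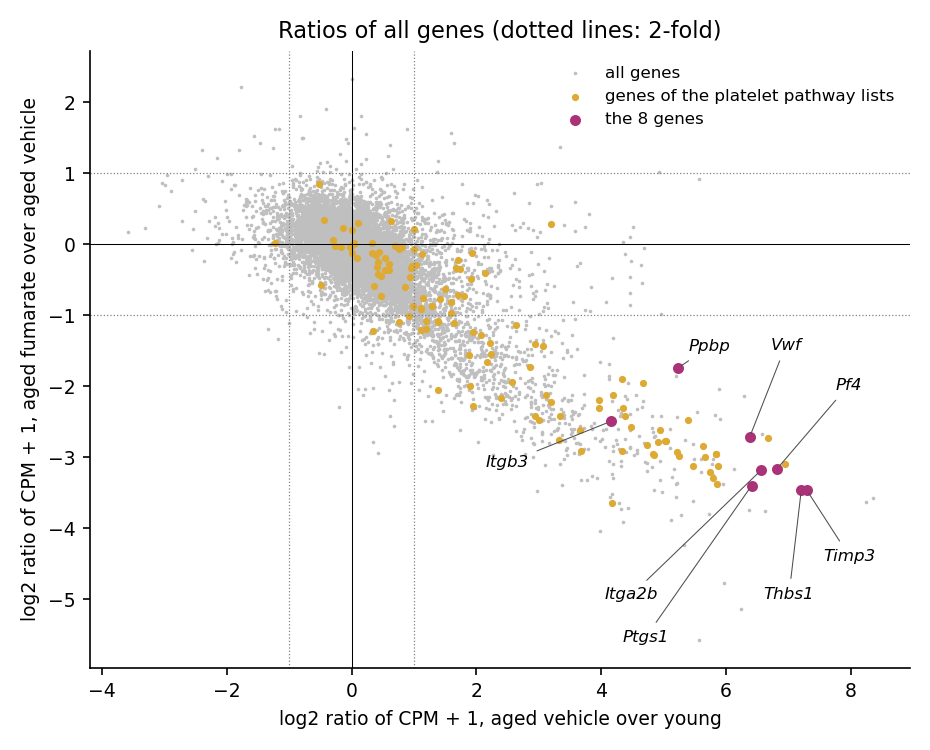
Log2 ratio of CPM + 1 for aged fumarate over aged vehicle (vertical axis) against aged vehicle over young (horizontal axis), 1 point per gene for all 17796 genes (grey), the genes of the 7 platelet pathway lists (yellow) and the 8 genes (purple), with dotted lines at 2-fold. Both axes use the vehicle library, so a high value there moves a gene to the lower right, where the 8 genes lie between 4.15 and 7.29 and between −3.47 and −1.74.

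By their share of the vehicle level seen with fumarate, the 8 genes could be ordered, in part beyond counting error. Ptgs1 (8.66%), Thbs1 (8.87%) and Timp3 (8.92%) had overlapping intervals, as did Itga2b (10.8%) and Pf4 (11.0%). Timp3 and Itga2b did not overlap, nor did Pf4 and Vwf (14.6%), Vwf and Itgb3 (17.6%), or Itgb3 and Ppbp (29.4%). This order does not follow the levels themselves: Ppbp and Vwf had nearly the same vehicle level, 141 and 143 CPM, and differed in the share seen with fumarate. Spread between mice was not measured, so these separations hold for the 3 libraries as sequenced.

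Per kb of exon, Pf4 (649 CPM per kb), Ppbp (130.0) and Itgb3 (96.0) led in the vehicle library, and Vwf, with 16064 exon bases, was lowest at 8.89. The fumarate library had the same leading genes, with Pf4 at 71.2, Ppbp at 38.3, Itgb3 at 16.9 and Vwf at 1.30 CPM per kb. In the young library Itgb3 led at 5.24, followed by Pf4 at 4.40 and Ppbp at 2.57, and Vwf was again lowest at 0.0456 CPM per kb.

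Other genes of megakaryocytes and platelets, with related family members and partners, were described through 7 lists with 123 genes in the table. Some of these, such as Cxcr3, Itgb1 and Cd47, are not particular to the lineage, so the counts below are not counts of lineage genes. For vehicle over young, 80 of the 123 were at least 2-fold higher and 1, Actn1, lower (median 1.67), against 8.96% and 1.71% of all genes. For fumarate over vehicle none was higher and 63 were lower (median −1.07), against 0.258% and 5.87% of all genes. For fumarate over young 45 were higher and 2 lower, Actn1 and Timp2 (median 0.67), against 3.99% and 1.95%. These genes were listed with earlier results known, and the libraries were not tested against each other.

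Among 21 platelet surface receptors, 19 were higher in vehicle over young and 15 lower in fumarate over vehicle, against 8.96% and 5.87% of all genes. Those not past 2-fold lower with fumarate included P2ry12 (0.366, 1.74 and 2.17 CPM) and Itga2 (1.56, 8.75 and 7.94 CPM). Both were named after their values were seen. Gp5, a subunit of the receptor for von Willebrand factor, was at 0.561, 64.5 and 10.8 CPM. The other subunits Gp1bb (0.374, 27.0 and 4.69 CPM) and Gp9 (0.171, 17.2 and 2.67 CPM) had the same order. P2rx1, an ATP-gated channel of platelets, was at 0.0976, 30.2 and 3.03 CPM. All 4 genes of the von Willebrand receptor complex were thus read in every library, with 0.171 to 0.610 CPM in the young one.

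Granule genes were mixed. Of 16 genes, 10 were higher in vehicle over young and 5 lower in fumarate over vehicle, against 8.96% and 5.87% of all genes. Mmrn1, a carrier of factor V in platelet granules, was at 0.390, 78.9 and 9.31 CPM, and F5, factor V itself, at 0.439, 29.0 and 4.62 CPM. Angpt1, an angiopoietin, was at 0.0976, 40.7 and 4.26 CPM and Clu, clusterin, at 0.415, 42.5 and 6.14 CPM. Selp and Serpine2, named after their values were seen, had higher levels in the young library and were nearer between the aged libraries. Selp, the adhesion molecule P-selectin, was at 44.1, 197 and 149 CPM, and Serpine2, a protease inhibitor, at 89.2, 299 and 234 CPM.

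Transcription factors of the lineage were mixed as well. Of 18 in the list, 14 were higher in vehicle over young and 13 lower in fumarate over vehicle, against 8.96% and 5.87% of all genes. Tal1 (0.366, 77.6 and 6.57 CPM), Nfe2 (0.342, 73.5 and 6.64 CPM), Gata1 (0.829, 51.8 and 5.77 CPM) and Lmo2 (0.708, 96.8 and 11.6 CPM) had the order of the 8 genes, as did Gata2 at 0.122, 113 and 16.2 CPM. Of the 17 with at least 10 CPM in the vehicle library, 12 were at 8.46% to 23.6% of that level with fumarate. The other 5, Etv6, Fli1, Ldb1, Mafg and Mafk, were at 78.0% to 91.9%. The groups were split at 50% of the vehicle level. The young levels were 0.0976 to 54.2 CPM for the 12 and 41.7 to 151 CPM for the 5. These ranges overlapped through Zfpm1 alone, at 54.2 CPM, and the next highest of the 12 was Runx1 at 16.2 CPM. The minimum admits a gene that is low in the young library only if its vehicle level is high, and that level is also the divisor. Nothing is therefore read from the young levels of the groups.

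In the list of prostanoid and leukotriene synthesis 9 of 13 genes were higher in vehicle over young and 8 lower in fumarate over vehicle. For each list in this paragraph the shares of all genes were 8.96% and 5.87%, and 1.71% were lower in vehicle over young. Alox5, 5-lipoxygenase of leukotriene synthesis, was at 0.268, 155 and 17.3 CPM. Pla2g4a, the phospholipase that frees arachidonate, was at 0.610, 58.7 and 6.86 CPM, and Alox12, the platelet 12-lipoxygenase, at 0.244, 30.8 and 7.22 CPM. Of 19 genes of integrin activation 10 were higher in vehicle over young and 8 lower in fumarate over vehicle. They included Syk, a kinase downstream of platelet collagen and podoplanin receptors, at 1.29, 133 and 14.4 CPM, and Rgs18, a regulator of G proteins, at 0.293, 62.7 and 7.87 CPM. Of 16 cytoskeleton genes 7 were higher and 1 lower in vehicle over young, and 7 were lower in fumarate over vehicle. Tubb1, the beta 1 tubulin of platelets, was at 0.0488, 7.76 and 2.24 CPM, with 2 reads in the young library, which a count of 0 allows. Tuba8 was at 0.704, 50.3 and 6.42 CPM and Mylk, myosin light chain kinase, at 0.293, 41.1 and 5.20 CPM. Of 20 family members and partners 11 were higher in vehicle over young and 7 lower in fumarate over vehicle, among them Mmp14, a membrane-bound metalloproteinase, at 1.05, 14.7 and 1.95 CPM.

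The share of the vehicle level seen with fumarate was plotted for genes with at least 10 CPM in the vehicle library. That minimum favours genes that are high in the vehicle library, which is also the divisor of the share, so nothing is read from a list's median share. The 8 main genes, which all passed it, had a median share of 10.9%, and Itgb3, at 30.9 CPM in the young library, had the second highest share after Ppbp.

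**Figure D4:**
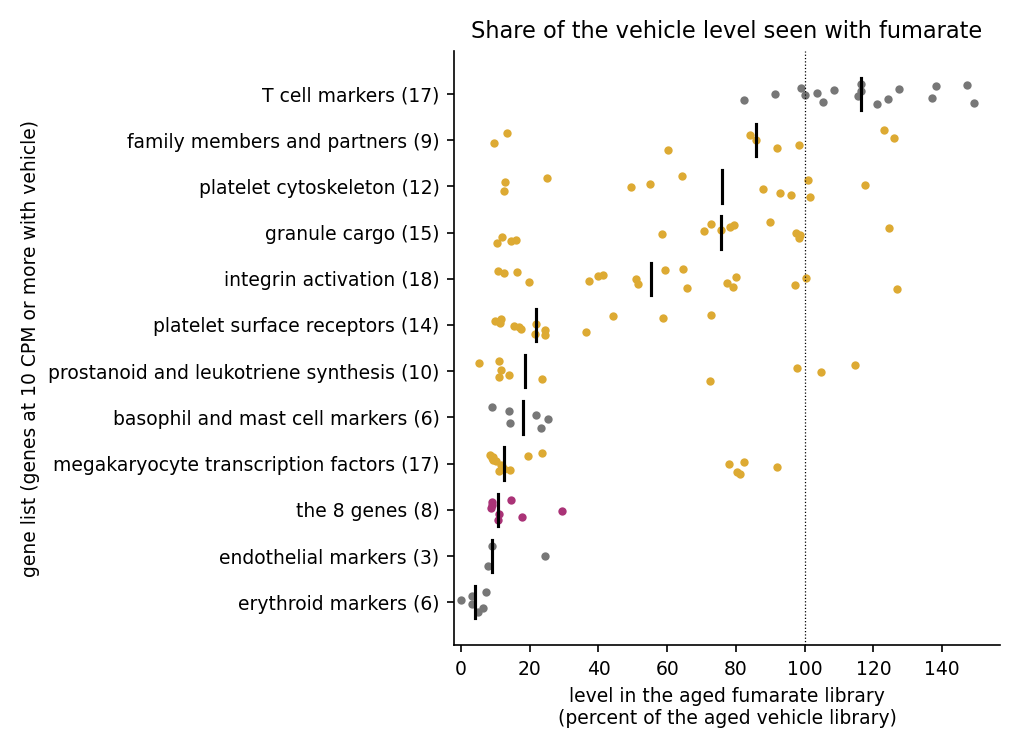
Level in the aged fumarate library as a percentage of the aged vehicle library, 1 point per gene with at least 10 CPM with vehicle, by gene list with at least 3 such genes (purple, the 8 genes; yellow, pathway lists; grey, cell type markers), with the list's median as a black bar and equal levels as a dotted line. The 8 genes lie between 8.66% and 29.4%, and the T cell markers between 82.3% and 149%.

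Genes whose pattern was most like that of the 8 were sought by distance over 2 log2 ratios (vehicle over young and fumarate over vehicle) from the medians of the 8, among 8664 genes with a mean of at least 10 CPM. The nearest 6 were Alox5 (distance 0.46), Gata2 (0.48), Ifitm1 (0.51), Adgrg1 (0.57), Aldh1a1 (0.58) and Muc13 (0.60). Ifitm1 was at 1.54, 242 and 37.2 CPM and Adgrg1 at 1.78, 171 and 15.6 CPM. Alox5 was also the nearest single gene to Pf4, Itga2b, Thbs1 and Timp3, Ifitm1 to Vwf and Aldh1a1 to Ptgs1. Ppbp was nearest to Cyp11a1 (0.903, 68.6 and 18.3 CPM) and Itgb3 to Pde5a (1.17, 41.7 and 7.00 CPM). This likeness rests on 3 libraries.

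Genes near the 8 on the chromosome were described as well. Within 100 kb of the 8 genes the table held 19 other genes. Of these, 6 were at least 2-fold higher in vehicle over young (median log2 ratio of the 19, 0.24), against 8.96% of all genes. The same 6 were at least 2-fold lower in fumarate over vehicle (median of the 19, −0.20), against 5.87% of all genes. They were Cxcl5, Cxcl3, Grn, Cd9, Syn3 and Gm43621. Syn3 and Gm43621 overlap Timp3 and Ptgs1 on the other strand, so their reads can be mixed with those of these members. Slc25a39 and Gpatch8, on either side of Itga2b, were at 87.0, 76.4 and 70.2 CPM and at 74.9, 68.0 and 71.6 CPM, while Grn, 16248 bases away, was at 23.8, 59.9 and 19.1 CPM. Cd9, a tetraspanin of platelets and other cells 51982 bases from Vwf, was at 33.3, 126 and 31.0 CPM. Cdc27, near Itgb3, was at 92.5, 89.3 and 104 CPM.

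Markers of other cell types were read in the same libraries, and the sums of several lists followed the same order. The 11 erythroid markers in the table summed to 3.47 CPM in the young, 246 CPM in the vehicle and 13.8 CPM in the fumarate library. Of them, 9 were past 2-fold up in vehicle over young and 9 past 2-fold down in fumarate over vehicle, against 8.96% and 5.87% of all genes, with Car1 and Ermap among those at 0 in the young library and Hba-a2, Alas2 and Ermap at 0 in the fumarate library. The 8 basophil and mast cell markers summed to 5.29, 340.2 and 65.5 CPM, all 8 past 2-fold in both comparisons. None was at 0, but 4 had no more than 3 reads in the young library, which a count of 0 allows. Mcpt8, which encodes a protease of basophils, stood at 0.122, 86.7 and 18.9 CPM, with 5 reads in the young library. Markers of macrophages and monocytes (9 genes) summed to 3.03, 26.7 and 5.27 CPM, with Csf1r and C1qb at 0 in both the young and the fumarate library, and those of neutrophils (6 genes) to 0.0488, 10.5 and 0.794 CPM, with S100a8, S100a9, Ngp and Elane at 0 in both.

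Endothelial cells and stromal cells can also make several of the 8 proteins, among them Vwf, Thbs1 and Timp3. Of 12 endothelial markers 5 were in the table, summing to 35.2, 87.3 and 21.3 CPM. Most of that sum was Pecam1, at 26.4, 51.9 and 12.7 CPM, and Flt1 was at 0.146, 12.9 and 1.01 CPM. Stromal markers (7 genes) summed to 7.75, 61.0 and 48.9 CPM, of which Lum made up 3.49, 55.8 and 46.5 CPM. B cell markers (8 genes) summed to 6.47, 17.4 and 18.6 CPM. The part of any of these cell types in the levels of the 8 genes was not tested.

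**Figure D5:**
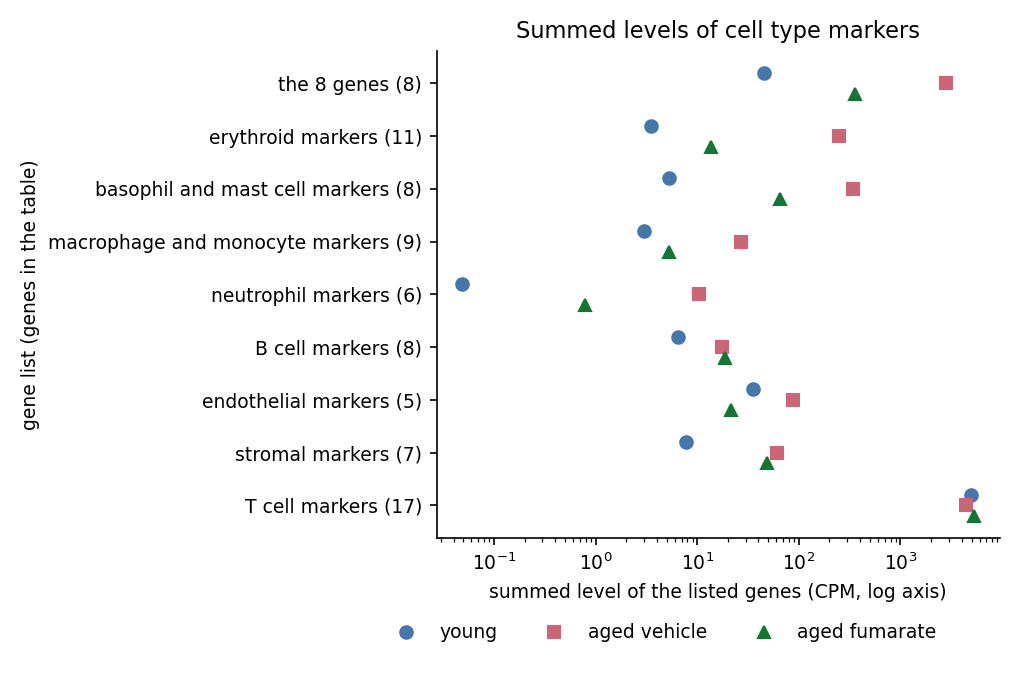
Summed CPM (log axis) of the 8 genes and of each list of cell type markers in the young (circles), aged vehicle (squares) and aged fumarate (triangles) libraries, 1 library each. By their sums, the 8 genes, erythroid, basophil and mast cell, macrophage, neutrophil and stromal lists share the order young, fumarate, vehicle. Single genes can differ from their list's sum. The erythroid genes Hba-a1 (0.446, 14.0 and 0.433 CPM) and Epor (1.54, 7.88 and 1.23 CPM), named after their values were seen, were lowest with fumarate. The neutrophil sum with fumarate was mostly Mpo, at 0.722 CPM with 10 reads. The stromal order is that of Lum, at 3.49, 55.8 and 46.5 CPM, while Fbln1 had another, at 2.93, 0.463 and 0.794 CPM. The T cell list lies between 4364 and 5307 CPM in all 3.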

How the data were processed

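Per the labels' protocols, a SMARTER mRNA kit and 500 ng of total RNA per sample were used for the libraries. STAR, Partek and the build mm10 are named in the submitters' processing notes; their versions, the annotation release and the strand setting were not given in the sources used here. Reads of genes that overlap on opposite strands can therefore be mixed. Although its name says raw counts, the deposited table holds CPM by the authors, since each column sums to 1000000. Repeating low values gave the worth of 1 read and so the depth. Between 57.9% and 67.6% of genes lay within 0.02 of a whole read, too few for a count model.

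Ratios are log2 of CPM + 1, with a limit of 2-fold, and folds and percentages of CPM have exact 95% intervals on rounded reads. Exon lengths are unions of GENCODE M21 exons. The end of each position is that of the table moved back by 1 base, where all 8 genes matched GENCODE M21. Only residues of estimation far below the worth of 1 read were set to 0, and other fractional reads were kept. The 8 members, the 7 pathway lists and the 8 cell type lists were chosen with earlier results of these data known. Named are the members, up to 4 genes per pathway list with the largest ratio for vehicle over young and a mean of at least 1 CPM, 13 partner genes, the genes nearest in pattern and 2 markers per cell type. Some genes that this rule names are not reported here. Other partners, neighbours and genes at 0 were named after their values were seen. On simulated reads with 200 changed genes among 17796, 97.5%, 97.0% and 97.5% of 2.5-fold changes were recovered for vehicle over young, fumarate over vehicle and fumarate over young. The changed genes were drawn from those above a minimum mean level, with counting error only, so spread between mice was not simulated. The planned protein comparisons were not run here. Alternatives were other added constants, 4 other scalings, a 3-fold limit and 2 minimums. Scripts ran in Python 3.11.15 with scipy 1.17.1, numpy 2.4.6, matplotlib 3.10.9 and pandas 2.3.3.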

Additional observations from a re-analysis of the deposited data

How the results depend on the processing

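All 8 genes stayed past the limit in the same direction in each of the 3 comparisons under all 9 alternatives (added constants of 0.5 and 5 CPM, trimmed mean of M values, median of ratios, upper quartile, T cell markers held equal, a 3-fold limit, at least 50 estimated reads, a mean of at least 1 CPM). None of the 24 single-gene ratios changed sign, but some changed in size. Ptgs1 for fumarate over young went from 3.01 to 1.46 with 5 CPM added, and for vehicle over young from 6.41 to 4.44. Since the 8 genes were picked with these ratios known, and the minimums removed none of them, this stability is not a test of the genes. The median of the 8 for vehicle over young was 6.48 as reported, 6.93 with 0.5 CPM added and 5.17 with 5 CPM added. For fumarate over vehicle it was −3.17, and −3.03 with 5 CPM added or −3.45 with T cell markers held equal, and for fumarate over young it was 3.57, and 2.57 with 5 CPM added. The number of all genes past the limit was 1595 higher in vehicle over young, and 851 with 5 CPM added or 918 at 3-fold. In fumarate over vehicle 1045 were lower, and 489 with 5 CPM added or 539 at 3-fold, and in fumarate over young 710 were higher, and 298 with 5 CPM added or 319 at 3-fold. Added constants shrink low genes by construction and a higher limit passes fewer. No paired analysis was possible because each group has 1 library. Depth limits the young values of Ptgs1 (13 reads) and Vwf (30 reads).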
